A study of Mus musculus with 4 samples.

Results

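The genes described here carry protein between the endoplasmic reticulum (ER) and the Golgi: 38 genes for the COPII coat, the COPI coat, the KDEL receptors, the cargo receptors and a few proteins of the intermediate compartment. They were read in the cerebellum of mice that lack Derlin-2 in the nervous system. A probe was assigned to a gene when the RefSeq accession in the array files belongs to it. By that rule 37 of the 38 genes had a probe, 55 probes in all, out of 22907 named genes on the array; Ergic2 matched none.

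The samples were cerebella of C57BL/6 mice at postnatal day 28. The 2 control samples were Derlin-2flox/flox, with both Derl2 alleles flanked by the sites that Cre recombinase cuts; the labels do not say whether they carry Cre. The 2 knockout (KO) samples were Derlin-2_KO, bred from Derl2flox/flox mice and mice in which the nestin promoter drives Cre. That promoter works in the precursors of neurons and most glia, so cells of another origin, such as microglia and vessel cells, are not targeted. Nothing in the labels says whether the samples of a group came from separate animals, and the p-values measure only the spread between these samples. RNA (150 ng per sample) was hybridised to single-colour Agilent arrays.

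COPII vesicles bud from the ER: the small GTPase SAR1 recruits the inner coat of SEC23 and SEC24, which bind cargo, and the outer cage of SEC13 and SEC31, at sites organised by SEC16. COPI vesicles run the other way, from the Golgi and the intermediate compartment back to the ER. Cargo receptors of the lectin and p24 families load selected proteins into vesicles, and KDEL receptors catch ER chaperones that have escaped and return them in COPI vesicles. Derlin-2 itself sits in the ER membrane and takes part in ER-associated degradation. Several genes of this transport route are known targets of the unfolded protein response, the program that raises ER chaperones when misfolded protein accumulates.

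All values are log2 signals relative to the 75th percentile of the array, and differences are KO minus control. Where a gene had several probes, the brightest was used. The brighter Derl2 probe read 2.13 and 2.20 in control and 0.81 and 0.70 in KO, 37.6% of control, and the second stood at 30.2%, the direction that the labels give. Between 66.4% and 69.4% of spots were well above background on the 4 arrays and 0 were saturated. The 4 arrays share a slide on which position and group cannot be told apart, and their number limits the precision of every value here. Control replicate 2 stood apart in choroid plexus markers. Their summed signal was 142 times the 75th percentile on that array and 7.44 to 7.85 times it on the other 3. The summed signal of red blood cell markers was also highest there, at 585, against 403 in control replicate 1 and 413 and 396 in KO. Results are therefore also given without control replicate 2 where it moved them.

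Of the 37 genes measured, 10 were higher and 27 lower in KO, and every difference was small, from −0.30 to 0.20 on the log2 scale (81.4% to 115% of control). In the limma fit over all 37516 probes, 0 passed a Benjamini-Hochberg adjusted p under 0.05 (0% of probes tested; 14% had an unadjusted p under 0.05), and for the members the adjusted p ran from 0.341 to 0.995. At an unadjusted p under 0.05, 1 member was lower, Tmed10, and 0 were higher, against 5.65% of 16520 named genes that were lower, 3.16% that were higher and 8.81% in either direction. A count of 1 in 37 is below that background. Derl2 itself, at 37.6% and 30.2% of control, had a limma adjusted p of 0.273 on both probes. An adjusted p over 0.05 here therefore does not show a lack of change. The groups did not overlap for 20 members that were lower in KO and 3 that were higher. Over all named genes the groups were separate with KO lower in 32.1% and with KO higher in 13.8% (45.9% in either direction), and 63.9% of named genes were lower in KO under this scaling. The median difference was −0.09 for the members and −0.06 for all named genes. These shares move with the scaling, for the members and for all named genes alike. Of members with separate groups, 87.0% were lower in KO, against 70.0% of named genes with separate groups. After quantile normalization the shares were 72.7% for members and 57.6% for named genes. When the arrays were scaled to spike-in probes they were 60.0% (12 lower, 8 higher) and 45.9%.

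**Figure D1:**
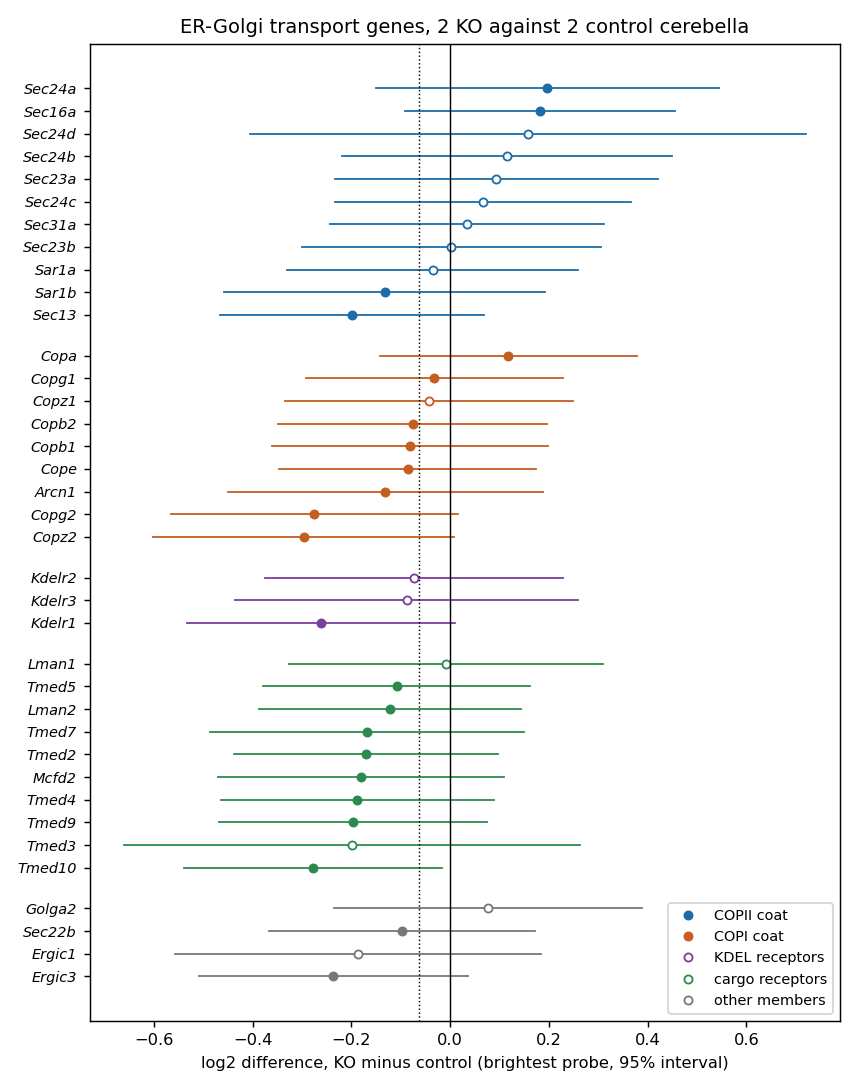
Log2 difference between KO and control cerebellum for the brightest probe of each of the 37 measured genes, by role, with the 95% interval from limma (2 arrays per group). Filled points mark genes whose groups did not overlap, the solid line is no difference and the dotted line is the median of all named genes at −0.06; all 10 cargo receptors lie below 0, and the interval of Tmed10 alone leaves out 0.

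The 10 listed cargo receptors stood together at a lower level in KO on their means. The list was chosen with earlier results of these data known. All 10 genes of this group were lower, against 63.9% of named genes, and in 8 the groups did not overlap, against 32.1% that were separate and lower, with a median difference of −0.18, or −0.11 relative to the median of all named genes. The range was narrow, from −0.28 for Tmed10 to −0.01 for Lman1. The median signal of the 10 genes on each array overlapped between the groups. KO replicate 2, at 3.38, stood above control replicate 1, at 3.35. Control replicate 2 was highest, at 3.55, and KO replicate 1 lowest, at 3.15. On every array this median is the midpoint of Tmed3 and Tmed7, so it reflects those genes rather than all 10. Centred on each gene's own mean over the 4 arrays, the medians were 0.06 and 0.11 in control and −0.10 and −0.05 in KO. The SD of the uncentred array median was 0.15, the largest of the 4 coat and receptor sets. It was 0.06 for COPI and 0.04 for both COPII and the KDEL receptors. Against control replicate 1, 9 genes were lower in KO replicate 1 and 8 in KO replicate 2; against control replicate 2 all 10 were lower in each. Without control replicate 2, the array with choroid plexus signal, 9 of 10 were lower and the median was −0.14. With spike-in scaling 9 of 10 were lower and the median was −0.10; this scaling shifts every gene of an array alike, so the difference from all named genes is the same by construction.

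Tmed10 encodes p24δ1, a transmembrane cargo receptor that cycles between ER and Golgi and that also recruits COPI. Tmed10 read 3.98 and 3.98 in control and 3.71 and 3.69 in KO. The groups lay far apart relative to their spread, and the difference was −0.28 (SE 0.10, 95% interval −0.54 to −0.02), or 82.5% of control, with an unadjusted p of 0.0413 in the limma fit and an adjusted p of 0.341. The unadjusted p was over 0.05 after quantile normalization, under spike-in scaling, without a filter on dim probes, with the replicate block and without any 1 of the 4 arrays, always with lower signal in KO. Tmed9 (α subfamily) and Tmed2 (β subfamily) are p24 proteins that assemble with Tmed10 into complexes. Tmed9 read 5.32 and 5.41 in the controls against 5.16 and 5.17 in KO, a difference of −0.20 (SE 0.10). Tmed2 read 4.14 and 4.16 in the controls against 4.01 and 3.94 in KO, a difference of −0.17 (SE 0.10). Both KO samples were below both controls for each gene. A dimmer Tmed2 probe differed by −0.40 (SE 0.14; limma unadjusted p 0.0423, adjusted p 0.343), and on control replicate 1 it lies within a local patch where the background was raised.

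Tmed4, a p24 protein of the α subfamily, read 2.88 and 2.83 in the controls and 2.62 and 2.71 in KO, a difference of −0.19 (SE 0.10). Tmed7 differed by −0.17 and Tmed5 by −0.11, both with separate groups. Tmed3 had a difference of −0.20 but its groups overlapped, with controls at 3.24 and 3.56 and KO at 3.07 and 3.33. The 7 p24 genes had a median of −0.19.

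The other cargo receptors are the lectins Lman1 and Lman2 and their partner Mcfd2. Lman1 is a mannose lectin that, with Mcfd2, carries coagulation factors and other glycoproteins out of the ER. Lman1 stood at 2.88 and 3.04 in control and 2.89 and 3.01 in KO, a difference of −0.01 (SE 0.12, 95% interval −0.33 to 0.31), with groups that overlapped. Mcfd2 stood at 3.54 and 3.67 in control and 3.41 and 3.44 in KO, a difference of −0.18 (SE 0.11). The 2 Mcfd2 probes gave −0.18 each. The difference between Lman1 and Mcfd2 was not tested. Lman2, a second lectin, differed by −0.12 on its brightest probe and by 0.06 on the other. Related Tmed and lectin genes outside this group were mixed. Tmed1 differed by −0.20 and Tmed8 by −0.08 with separate groups. Lman1l at −0.13 and Lman2l at 0.07 overlapped, and Tmed6 and Tmed11 had no kept probe.

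**Figure D2:**
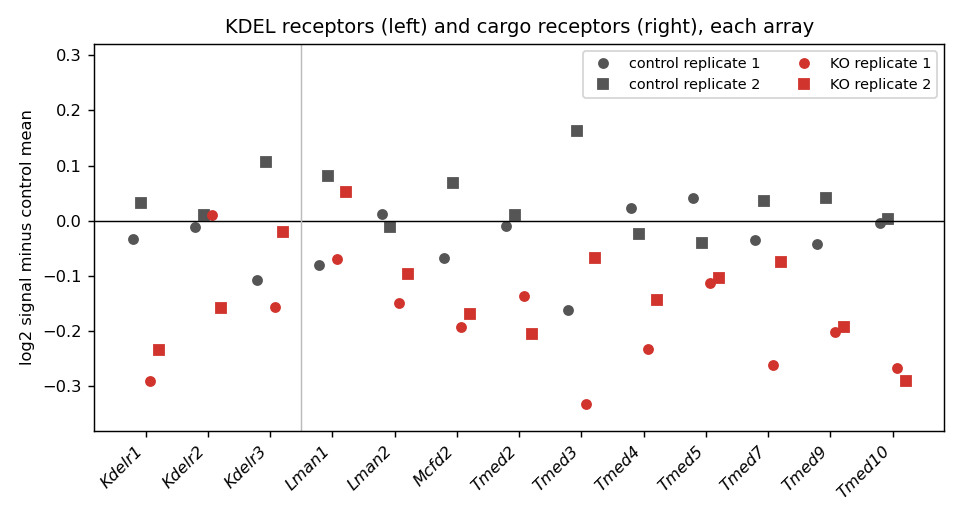
Log2 signal of each array minus the control mean of the gene, for the 3 KDEL receptors and the 10 cargo receptors; circles are replicate 1, squares replicate 2, grey control and red KO. For Tmed10, Tmed9 and Kdelr1 both KO arrays lie below both control arrays by more than the spread within either group, while for Lman1 and Kdelr3 the groups overlap.

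None of the KDEL receptors was higher in KO on its mean, while the chaperones of a list of ER-resident proteins were. Kdelr1 read 0.10 and 0.16 in the controls and −0.16 and −0.10 in KO. The groups did not overlap, and the difference was −0.26 (SE 0.10, 95% interval −0.53 to 0.01), with a limma adjusted p of 0.367. Kdelr2 read 1.11 and 1.13 in control and 1.13 and 0.96 in KO, a difference of −0.07 (95% interval −0.38 to 0.23). Kdelr3, a known target of the unfolded protein response in other cells, read −2.72 and −2.51 in control and −2.77 and −2.64 in KO, a difference of −0.09 (95% interval −0.44 to 0.26). For Kdelr2 and Kdelr3 the groups overlapped. Both signs rest on single arrays: without KO replicate 2 the Kdelr2 difference was 0.01, and without control replicate 2 that of Kdelr3 was 0.02. The median of the 3 genes was −0.09, and −0.02 with spike-in scaling.

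The ER chaperones and folding enzymes are shown for the contrast; their rise in these samples was known before this list was made, and it is no independent evidence. All 12 were higher in KO, with a median of 0.45, and 10 had separate groups, against 13.8% of named genes. Hspa5, or BiP, the chief ER chaperone and a KDEL protein, read 4.69 and 4.78 in control and 5.73 and 5.38 in KO, a difference of 0.82 (SE 0.16). Hsp90b1, which also ends in KDEL, differed by 0.32 and Pdia4 by 0.43. P4hb, a disulfide isomerase that ends in KDEL too, differed by 0.005 (95% interval −0.34 to 0.35) and Dnajb11 by 0.15, both with groups that overlapped. The limma adjusted p of these 12 was 0.273 or higher. KO replicate 1 had the larger shift: its median was 0.71 above either control, and that of KO replicate 2 was 0.36 and 0.23 above them, with 1 and 2 of the 12 genes lower. The 4 sets of member genes for coats and receptors had medians between −0.26 and 0.09 in the same pairs.

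The COPII coat was the group that leaned to higher signal. Of its 11 genes 8 were higher and 3 lower, with a median of 0.07, or 0.13 relative to the median of all named genes, and a range from −0.20 to 0.20. The groups were separate for Sec16a and Sec24a, which were higher, and for Sec13 and Sar1b, which were lower, so the share that was separate and higher (2 of 11) was near the 13.8% of all named genes. The median of KO replicate 1 was 0.09 and 0.05 above the controls. That of KO replicate 2 was −0.01 and −0.03, where all named genes had −0.05 and −0.06. Without KO replicate 1 the COPII median was 0.00023 and that of all named genes −0.06. With spike-in scaling the COPII median was 0.14, with 5 genes separate and higher, against 22.6% of all named genes.

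Sec16a, the scaffold of ER exit sites, read 2.12 and 2.12 in control and 2.35 and 2.25 in KO, a difference of 0.18 (SE 0.10; limma adjusted p 0.478). Its second probe gave 0.10. Sec24a, a cargo-binding subunit, read −0.22 and −0.13 in control and 0.14 and −0.10 in KO, a difference of 0.20 (SE 0.13). KO replicate 1 was the higher of the KO pair for Sec24a, and the 2 dimmer probes gave 0.18 and 0.02. Sec24b and Sec24c, further cargo-binding subunits, differed by 0.12 and 0.07 with groups that overlapped. A dimmer Sec24b probe, at a mean signal of −4.46, gave 0.16 with separate groups. Sec24c was −0.01 without KO replicate 1.

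Sec24d, another cargo-binding subunit, read −2.35 and −2.45 in control, −2.51 in KO replicate 1 and −1.97 in KO replicate 2, so its difference of 0.16 (SE 0.21) rests on KO replicate 2. Without KO replicate 1 it was 0.43 with a limma unadjusted p of 0.0412, where the lone KO array is assumed to vary like the controls. The larger chaperone shift was in KO replicate 1, and a link between Sec24d and the chaperones was not tested.

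The outer cage and the GTPases did not follow Sec16a and Sec24a. Sec13, which serves the COPII cage and also the nuclear pore, read 0.87 and 0.87 in control and 0.71 and 0.64 in KO, a difference of −0.20 (SE 0.10; limma adjusted p 0.442). Sec31a, its partner in the cage, differed by 0.03 (95% interval −0.24 to 0.31). Sar1b, the GTPase isoform tied to the export of large lipoprotein particles, read 2.13 and 2.17 in control and 1.91 and 2.12 in KO, a difference of −0.13 (SE 0.12). Sar1a differed by −0.04 with groups that overlapped, and its dimmer probe by −0.14 with separate groups. Sec23a and Sec23b, paralogues that activate the SAR1 GTPase, differed by 0.09 and 0.002, with groups that overlapped.

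The COPI coat had a median of −0.08, against −0.06 for all named genes. Of its 9 genes 8 were lower, against 63.9% of named genes, and 7 of these had separate groups, against 32.1% that were separate and lower. Both counts rest on the brightest probes and include Arcn1 and Copg2, whose probes differ in sign. The count of genes with separate groups also depends on the scaling. With spike-in scaling 2 COPI genes were separate and lower, 2 were separate and higher, and the median was −0.01. Of all named genes 19.1% were then separate and lower and 22.6% separate and higher. With quantile normalization 4 COPI genes were separate and lower, against 25.0% of all named genes. Without control replicate 2 the COPI median was −0.03 and that of all named genes −0.06. On their brightest probes Copb1, Copb2, Cope, Copg1 and Copz1 lay between −0.09 and −0.03, with standard errors near 0.10. The other 2 Copg1 probes gave −0.25 (SE 0.19) and −0.16 (SE 0.13), with groups that overlapped. Copa, the α subunit of the outer layer, was the single gene of the coat that was higher. It read 3.60 and 3.62 in control and 3.73 and 3.73 in KO, a difference of 0.12 (SE 0.10), with separate groups. Arcn1, the δ subunit, read 2.94 and 2.90 in control and 2.89 and 2.69 in KO, a difference of −0.13, but its dimmer probe gave 0.18 and the mean of its probes gave 0.03.

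The 2 largest differences in COPI were in genes for alternative subunits. Copz2 encodes the second ζ subunit, a paralogue of Copz1. It read 0.44 and 0.61 in control and 0.20 and 0.26 in KO, a difference of −0.30 (SE 0.11, 95% interval −0.60 to 0.01; limma adjusted p 0.362). Its second probe was also lower, at −2.19 and −2.14 in control and −2.88 and −2.40 in KO, a difference of −0.47 (SE 0.19). The groups were separate on both Copz2 probes, and Copz1 differed by −0.04 (95% interval −0.34 to 0.25). Copg2, the second γ subunit, read 1.97 and 1.91 in control and 1.60 and 1.73 in KO on its brightest probe, a difference of −0.27 (SE 0.11). Its other probe read −2.22 and −2.04 in control and −1.86 and −1.85 in KO, a difference of 0.27 (SE 0.11). The Copg2 probes thus disagreed in direction with separate groups on each, and the brightest lies within the raised patch of control replicate 1. No direction can be given for Copg2.

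Markers of meningeal fibroblasts are given beside Copz2. Of 7 such markers 6 were lower in KO, against 63.9% of named genes. In 3 the groups were separate with KO lower, against 32.1% of named genes (Lum at −0.52, Dcn at −0.35 and Col3a1 at −0.18). Igf2 at −0.49, Col1a2 at −0.05, Col1a1 at −0.005 and Slc6a13 at 0.02 overlapped. Their median was −0.28 and −0.34 in KO replicate 1 against the controls, and 0.004 and −0.07 in KO replicate 2. Their summed signal was 34.1 and 35.1 in control and 27.5 and 33.5 in KO. KO replicate 1 was lowest for this sum and for Copz2, at 0.20. In KO replicate 2 Copz2 was at 0.26, against 0.44 and 0.61 in control, and the sum was 33.5. All 7 markers were detected. Their part in the Copz2 result was not tested.

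**Figure D3:**
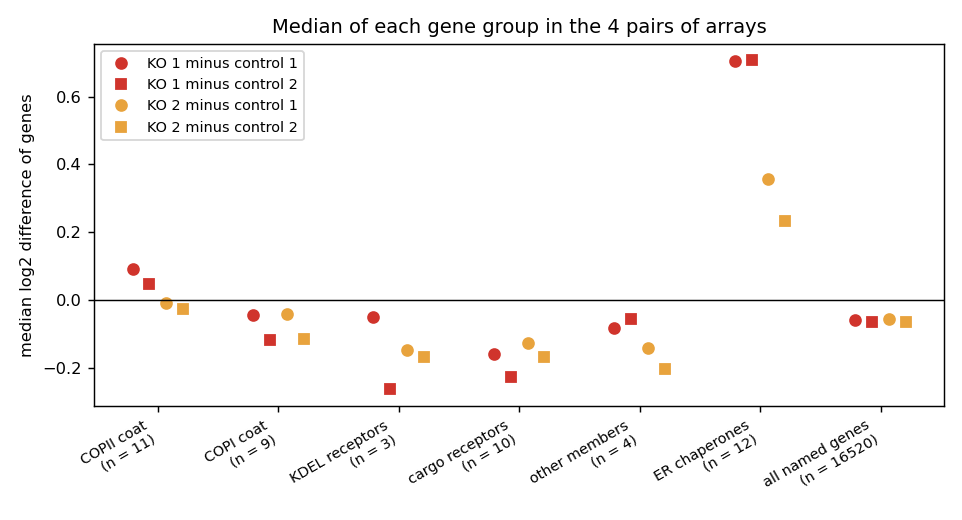
Median log2 difference of the genes of each group for each of the 4 pairings of KO and control arrays (red, KO replicate 1; orange, KO replicate 2; circles, against control replicate 1; squares, against control replicate 2). The cargo receptors lie between −0.23 and −0.13 in all 4 pairs and all named genes between −0.06 and −0.05, while the ER chaperones lie between 0.23 and 0.71.

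The remaining members sit in the intermediate compartment and the Golgi. Ergic3, a cycling protein of the intermediate compartment, read 3.41 and 3.50 in control and 3.23 and 3.21 in KO, a difference of −0.24 (SE 0.10; limma adjusted p 0.391), and its second probe gave −0.21. Both Ergic3 probes had separate groups. Ergic1, its relative, read −0.79 and −0.92 in control and −0.91 and −1.17 in KO, a difference of −0.19 (SE 0.14) with groups that overlapped. Sec22b, the SNARE that fuses vesicles between ER and Golgi, read 2.68 and 2.75 in control and 2.64 and 2.60 in KO, a difference of −0.10 (SE 0.10) with separate groups. Golga2, the Golgi matrix protein GM130 that tethers arriving vesicles, read 4.21 and 4.14 in control and 4.34 and 4.16 in KO, a difference of 0.08 (SE 0.12) that was −0.01 without KO replicate 1. Its 1 probe lies within the raised patch of control replicate 1.

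Probes of the same gene mostly gave the same sign. Of 15 members with more than 1 kept probe, the signs were the same in 11 and mixed in 4, which were Copg2, Arcn1, Lman2 and Sec31a. The gene-wise mean over probes left the cargo receptor median at −0.18. Of the 55 member probes 1 was not kept, a second Sec23a probe not well above background on both arrays of a group, and the 3 within the raised patch are the probes of Copg2, Tmed2 and Golga2 given above.

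**Figure D4:**
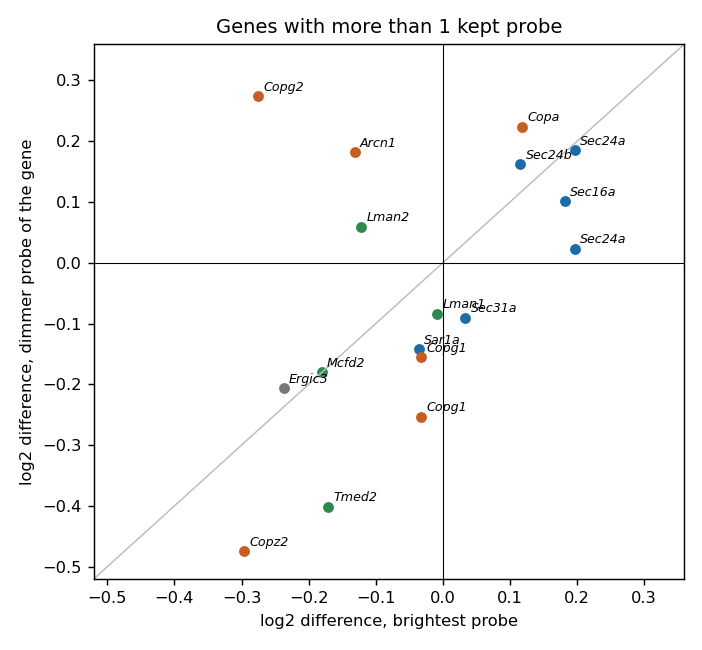
Log2 difference of each dimmer probe against that of the brightest probe, for the 15 members with more than 1 kept probe; colours are the roles of the forest plot and the diagonal marks equal values. Copz2, Tmed2, Mcfd2 and Ergic3 lie below 0 on both axes, whereas Copg2 and Arcn1 lie in the upper left, lower on the brightest probe and higher on another.

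A list of 54 further genes of the route, among them tethers, SNAREs, Rab and Arf GTPases and the TRAPP complex, held 50 measured genes. It was drawn up with results of these data known. Of these 15 were higher and 35 lower in KO, with a median of −0.06, the same as for all named genes. Separate groups were seen in 17 with KO lower and 5 with KO higher, 34% and 10% of them, near the 32.1% and 13.8% of all named genes. Yif1a, a Golgi protein of the YIP family, was the 1 gene with an unadjusted p under 0.05, at 3.12 and 3.13 in control and 2.65 and 2.87 in KO, a difference of −0.37 (SE 0.12; limma adjusted p 0.331). Rab1b, a GTPase of ER to Golgi traffic, read 3.05 and 3.05 in control and 2.82 and 2.85 in KO, a difference of −0.22. Trappc5, a TRAPP subunit, differed by −0.24 and Bnip1, an ER SNARE, by −0.22. Gosr1, a Golgi SNARE, was higher by 0.24.

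The promoters of the route were read for the letters of elements through which the unfolded protein response acts. The names of the elements do not tell which factor acts on a promoter. RefSeq promoters on GRCm38.p6, from 250 bases before to 50 after a start, were in the table for 33 of the 38 members. The classic ER stress element, CCAAT and CCACG separated by 9 bases, was searched on both strands. It was in 0 of the 33 members and in 5 of 10 chaperones of the list above, against 0.137% of all 27025 genes with a promoter. The XBP1 element TGACGTGG, also on both strands, was in 5 of the 33 members (15.2%) and in 0 of the 10 chaperones, against 0.714% of all genes. The shorter ER stress element II was in 0 members and 1 chaperone, Dnajb11, against 0.0444% of all genes. Of the further route genes 8.7% held the XBP1 element (Arf1, Gbf1, Scfd1 and Stx5a of 46). The elements overlap in letters: CCACG, the end of the classic element, also begins CCACGTCA, the XBP1 element on the other strand.

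The sequences below show where these letters lie in the transport genes that hold them, in 2 chaperones for comparison, and in the 2 members of the receptor groups with the lowest p. They run 5′ to 3′ on the strand of the gene, and capitals mark the XBP1 element or its reverse complement in the transport genes and the ER stress element in the chaperones. Windows are the 100 bases before the start, except for Copb2 and Sec23a, where the element touches or follows the start and 30 bases are shown.
Sec24d, chr3:123267396-123267495, + strand: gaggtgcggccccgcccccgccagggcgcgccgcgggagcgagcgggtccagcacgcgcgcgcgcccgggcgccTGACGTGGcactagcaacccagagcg
Sec23a, chr12:59011993-59012022, − strand: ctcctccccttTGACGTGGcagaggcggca
Copb1, chr7:114254681-114254780, − strand: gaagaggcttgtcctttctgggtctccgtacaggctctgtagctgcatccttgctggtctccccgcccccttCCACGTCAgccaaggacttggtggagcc
Copb2, chr9:98563713-98563742, + strand: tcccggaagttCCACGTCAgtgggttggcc
Kdelr3, chr15:79516308-79516407, + strand: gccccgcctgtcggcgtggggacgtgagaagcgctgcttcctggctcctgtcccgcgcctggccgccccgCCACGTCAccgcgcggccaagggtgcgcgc
Hspa5, chr2:34771990-34772089, + strand: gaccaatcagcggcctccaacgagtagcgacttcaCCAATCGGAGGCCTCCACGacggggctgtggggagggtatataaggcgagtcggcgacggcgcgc
Pdia6, chr12:17266489-17266588, + strand: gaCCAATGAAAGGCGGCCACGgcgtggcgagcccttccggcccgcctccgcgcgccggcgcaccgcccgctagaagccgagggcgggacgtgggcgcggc
Tmed10, chr12:85374718-85374817, − strand: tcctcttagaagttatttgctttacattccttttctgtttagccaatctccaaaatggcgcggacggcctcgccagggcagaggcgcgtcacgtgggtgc
Kdelr1, chr7:45872740-45872839, + strand: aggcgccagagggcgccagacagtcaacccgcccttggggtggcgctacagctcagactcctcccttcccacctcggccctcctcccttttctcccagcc

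In the transport genes the element lay close to the start, beginning 26 bases before it in Sec24d, 28 in Copb1 and 30 in Kdelr3. The 5 members that hold it did not stand out in signal: Sec24d differed by 0.16, Sec23a by 0.09, Copb2 by −0.08, Copb1 by −0.08 and Kdelr3 by −0.09, each with a 95% interval that includes 0. The 5 chaperones with the classic element, Hspa5, Pdia6, Calr, Creld2 and Hsp90b1, differed by 0.32 to 0.82. Of the 5 with a promoter and no classic element, Sdf2l1 differed by 1.03, Pdia4 by 0.43, Pdia3 by 0.30, Dnajb11 by 0.15 and P4hb by 0.005, so the ranges overlapped. A match is a description of letters in this window and shows no binding, and these 5 members were chosen for display by their match.

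The makeup of the tissue was read from marker lists. Beside the counts and medians below, 63.9% of all named genes were lower in KO, with a median of −0.06. Granule cell and Purkinje cell markers, which define the cerebellum, were detected for all 8 genes of each, with medians of −0.04 and −0.08. Oligodendrocyte markers were lower in KO for 8 of 8 genes, with a median of −0.35 and a summed signal of 382 and 361 in control and 312 and 347 in KO. Microglial markers were lower for 8 of 8, with a median of −0.23 and sums of 22.9 and 22.4 in control and 17.8 and 20.9 in KO. Astrocyte markers were lower for 6 of 7, with a median of −0.11. Of the genes in these lists, Sept4 alone, in the astrocyte list, had no kept probe. The part of these cell types in the lower cargo receptor signal was not tested, and in whole tissue fewer cells of a type and less RNA per cell cannot be told apart.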

How the data were processed

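Cerebellar RNA of 2 control and 2 KO samples was read on single-colour Agilent arrays; groups come from the sample titles. Per the file headers, the authors' deposited processed signal is a linear intensity from Agilent Feature Extraction 12.1.1.1 (the submitters' processing notes name 10.7.1.1), background subtracted and detrended within the array and not normalized between arrays. Deposited flag columns, read as other values per the file headers, mark outlier and well-above-background spots. The authors' deposited series table holds log2 values, centred per probe on an unstated value; its column medians were 0.007, −0.19, −0.16 and −0.22, and differences between its columns matched the scanner values up to a constant per array.

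From the scanner files, log2 processed signal was averaged over spots of a probe, without control spots and outlier spots, and scaled by the 75th percentile of its array. A probe was kept if both arrays of either group had it well above background (37516 of 56605). Names came from RefSeq accessions through a table of GRCm38.p6, which named 32989 of 35886 such probes. KO was compared with control in limma 3.58.1 (R 4.3.3), with Benjamini-Hochberg adjustment over all kept probes; intervals use the moderated degrees of freedom (4.35). With 2 against 2 arrays no permutation test can reach 0.05. The fit was tested on simulated data with some probes changed. At the adjusted threshold it recovered 0% of probes changed by 1 log2 unit and 97% of those changed by 2. Of those changed by 1 log2 unit, 98% had a limma unadjusted p under 0.05. Differences as small as those of the members were not simulated. The members and lists were chosen with earlier results of these data known. Genes named by rule were Derl2, the KDEL receptors, the members outside the coats and receptors, in each of the COPII, COPI and cargo receptor sets the 4 smallest p and the largest signal, any member not well above background, members whose probes differ in sign with both past 0.2, the 5 smallest p of the further route genes, and Hspa5, Hsp90b1 and Pdia4. Other genes, and the promoters other than Kdelr3's, were named after their values or matches were seen. Receptor proteins are not shown here. Alternatives are in the closing section.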

Additional observations from a re-analysis of the deposited data

How the results depend on the processing

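In all, 16 alternatives were run. The cargo receptor median stayed below 0 under each, from −0.20 to −0.10, with 9 or 10 of 10 genes lower; this count was added after the data were seen. The COPI median was −0.011 under spike-in scaling and the KDEL receptor median −0.018; left-out arrays gave −0.195 to −0.063 for the KDEL receptors. The COPII median was 0.12 after quantile normalization, 0.14 under spike-in scaling and 0.00023 to 0.086 with an array left out. The 1 member lower at an unadjusted p under 0.05 became 5 under normexp, 6 under an intensity trend with robust variances, 2 among probes detected on all arrays, 2 with probes averaged per gene, and 0 after quantile normalization, under spike-in scaling, without a filter on dim probes, under the replicate block, and with any array left out (0 to 0), where 0 to 1 were higher. Same-numbered arrays share only a number in the labels; their deviations had r = 0.12 over 37516 probes, with 2 pairs. Probes past the adjusted threshold numbered 0, and 1 after quantile normalization, the median of detected probes, spike-in scaling or omission of patch spots, 2 under normexp, 4 under the intensity trend, and 0 to 98 with an array left out (98 without control replicate 2). Both Derl2 probes passed under the intensity trend, at −1.41 and −1.73, and the second also under normexp, at −1.57. Of 319 values of 20 named members, 313 kept their sign and 6 reversed: Copg2 (0.275 without patch spots, where its dimmer probe takes over), Arcn1 (0.025 with probes averaged), and with an array left out Kdelr3 (−0.195 to 0.018), Kdelr2 (−0.158 to 0.010), Sec24c (−0.014 to 0.146) and Golga2 (−0.013 to 0.165). Golga2 had no value without patch spots. The cause of these changes was not tested.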
